A study of Mus musculus with 2 samples.

Results

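The transcription factors described here set the fate of T cells and of related lymphocytes: Tcf7, Lef1, Tox, Eomes, Tbx21, Runx3, Bcl11b, Id2, Id3 and Zfp683. They are 10 of the 27998 genes listed in the deposited matrices, matched by gene symbol, and all 10 were found. They were followed in single-cell RNA sequencing of Kunming mice with orthotopic G422 glioma, a tumour line described in the series title as triple negative. The control library came from untreated mice, sampled at day 7 after tumour inoculation. The LTS library came from long-term survivors, mice that had lived for over 100 days after a combined therapy, whose agents are not named, were then inoculated again in the opposite hemisphere and again lived for over 100 days. Their tissue is also described as taken on day 7 after tumour inoculation, and the sources used here do not say which inoculation is meant. Each group is 1 library, how many mice went into it is not given, and both hold cells from a Percoll interphase meant to collect immune cells, so group, library and any difference in handling cannot be told apart.

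Tcf7 and Lef1 encode the related HMG-box proteins TCF-1 and LEF-1, which are known for naive, memory and stem-like T cells. Tox is known for chronically stimulated T cells, Eomes and Tbx21 (T-bet) are the T-box factors of cytotoxic lymphocytes, and Runx3 is known for the CD8 lineage and for tissue residency. Bcl11b holds T cell identity, Id2 and Id3 are inhibitors that bind E proteins and keep them off DNA, and Zfp683 encodes Hobit, known for resident lymphocytes.

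Cells were barcodes with at least 1000 UMIs (unique molecular identifiers, each standing for 1 captured transcript), at least 300 genes and at most 15% mitochondrially encoded UMIs. This kept 8310 control and 4835 LTS cells, with medians of 14889.5 and 18779 UMIs, out of 165796852 and 149413534 UMIs in all; 13 kept barcodes were shared by the libraries, 0 of them in lymphocyte gates. The CD3 gate, set by Cd3d, Cd3e and Cd3g, held 59 control and 442 LTS cells, with medians of 2575 and 3354.5 UMIs. Within it the CD8 gate (Cd8a or Cd8b1, no Cd4) held 16 and 259 cells, the CD4 gate 13 and 90, and the gate with neither co-receptor 30 and 90. There were 0 and 3 cells with both. The NK-like gate held 12 and 13 cells. All 8 measured T cell markers had UMIs in the CD3 gate of both libraries, but Cd3d, Cd3e and Cd3g among them set the gate. All 8 microglia markers also had UMIs there, so detection alone does not name the cells. Microglia or macrophages (1229 and 938 cells) and non-immune cells (4974 and 2331, or 59.9% and 48.2% of all kept cells) served as background, with the free RNA seen in barcodes of 1 to 100 UMIs. Levels are UMI counts scaled to a common library total (CPM) summed over a gate, and every interval is an exact 95% interval that covers counting error only. Without replicate libraries no difference was tested.

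The lymphocyte gates also held transcripts of other cells. Tumour or stromal markers without Vim, a list trimmed after the data were seen because lymphocytes also express Vim, had UMIs for 6 of 7 genes in the control CD3 gate and 7 of 7 in the LTS CD3 gate. Their summed level was 1421 CPM in control, 106% of the level in free RNA, and 396 CPM in LTS, 27.3% of it. Single cells ranged from 0 to 8740 CPM in control and from 0 to 3838 CPM in LTS, and Col1a2 was at 0 in the control gate. Cells over 10000 UMIs were 5 of 59 in control, carrying 31.5% of the gate's UMIs, and 18 of 442 in LTS, carrying 19.8%. No doublet caller was run. The control CD4 gate was the most affected, with 3 of its 13 cells over 10000 UMIs carrying 59.1% of its UMIs. A UMI of a dendritic cell marker was found in 6 of those 13 cells, against 7 of 90 in the LTS CD4 gate. The marker list includes Ccr7, which is also among the naive and memory genes. This limits every control CD4 level given below. Cd3g stood at 1385 CPM in LTS and 789.5 in control, 1.75 times as high (1.50 to 2.07), but the gate was set on this gene, and a larger share of T cell RNA and more Cd3g per T cell cannot be told apart.

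The promoter windows below are those on which the description of Bcl11b, Runx3, Id2 and Id3 turns: these genes either differed most in level between the libraries with counts in both, or separated the CD8 from the CD4 gate. RefSeq windows on GRCm38.p6, 300 bases around each annotated start, were found for 8 of the members (13 windows); Tox and Zfp683 had none. Capitals mark matches on either strand to CTTTGAA or CTTTGTT (TCF/LEF), TGTGGTT (Runx), TCACACC (T-box) and CANNTG (the E-box bound by E proteins).
Bcl11b: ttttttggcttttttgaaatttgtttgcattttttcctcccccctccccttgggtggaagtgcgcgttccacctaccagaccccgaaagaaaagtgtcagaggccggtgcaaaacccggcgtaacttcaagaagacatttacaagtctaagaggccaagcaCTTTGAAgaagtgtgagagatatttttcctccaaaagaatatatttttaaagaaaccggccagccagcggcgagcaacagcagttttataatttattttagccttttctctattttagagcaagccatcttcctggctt
Runx3: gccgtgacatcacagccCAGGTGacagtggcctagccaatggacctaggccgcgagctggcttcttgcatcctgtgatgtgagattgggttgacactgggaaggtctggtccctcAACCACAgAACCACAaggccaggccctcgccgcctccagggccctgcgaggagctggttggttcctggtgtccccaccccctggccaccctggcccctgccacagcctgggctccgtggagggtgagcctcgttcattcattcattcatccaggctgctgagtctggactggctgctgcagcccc
Id2: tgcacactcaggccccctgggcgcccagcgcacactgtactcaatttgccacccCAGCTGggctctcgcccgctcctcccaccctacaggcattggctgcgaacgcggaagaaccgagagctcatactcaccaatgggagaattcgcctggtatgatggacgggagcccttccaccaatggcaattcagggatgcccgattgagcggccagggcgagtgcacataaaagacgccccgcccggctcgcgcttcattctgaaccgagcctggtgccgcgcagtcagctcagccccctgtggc
Id3: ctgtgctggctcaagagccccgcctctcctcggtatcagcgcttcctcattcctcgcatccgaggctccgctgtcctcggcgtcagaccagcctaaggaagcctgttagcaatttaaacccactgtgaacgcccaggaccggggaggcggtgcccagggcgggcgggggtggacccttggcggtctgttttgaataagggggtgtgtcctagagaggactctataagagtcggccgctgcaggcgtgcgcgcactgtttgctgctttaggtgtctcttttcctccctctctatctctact

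The Bcl11b window (chr12:108003365-108003664, minus strand) held 1 CTTTGAA, a match present in 5.14% of all 32851 windows. The first of the 2 Runx3 windows (chr4:135120395-135120694, plus strand) held 2 matches to TGTGGTT, both on the opposite strand and separated by 1 base, and 1 E-box; 5.27% of windows held TGTGGTT. The Id2 window (chr12:25096043-25096342, minus strand) held 1 E-box, and the Id3 window (chr4:136143572-136143871, plus strand) none of the searched motifs, where 72.3% of windows held an E-box. CTTTGTT (5.85% of windows) and TCACACC (3.98%) matched no member's window. These matches are letters only and say nothing of binding. In GENCODE M21 on the same build the genes lie at chr11:52252371-52283014 (Tcf7), chr3:131110471-131224356 (Lef1), chr4:6686353-6991557 (Tox), chr9:118478212-118486132 (Eomes), chr11:97098071-97115331 (Tbx21), chr4:135120652-135177990 (Runx3), chr12:107910403-108003602 (Bcl11b), chr12:25093799-25097140 (Id2), chr4:136143497-136145755 (Id3) and chr4:134053838-134058996 (Zfp683). The Id2 and Id3 windows lie inside the annotated genes, which extend further upstream. Runx3 is overlapped on the other strand by Gm16224.

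In the CD3 gate the LTS library held more Id2, Bcl11b and Eomes and less Id3, in CPM, than the control library. On the scale of log2(CPM + 5), 4 of the 10 members differed by at least 2-fold, 3 higher in LTS and 1 lower. Over all genes with at least 20 CPM in either library, 5.26% were higher and 8.71% lower by that much, 14% in either direction, and the median log2 difference was -0.18; 9 members passed that filter, with a median of 0.14. With median-of-ratios scaling the higher and lower shares of all genes turned to 7.99% and 5.80% and the median to 0.01, and the same 4 members stayed past 2-fold. Members that were not past 2-fold were Tcf7, Lef1, Tox, Tbx21, Runx3 and Zfp683.

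**Figure D1:**
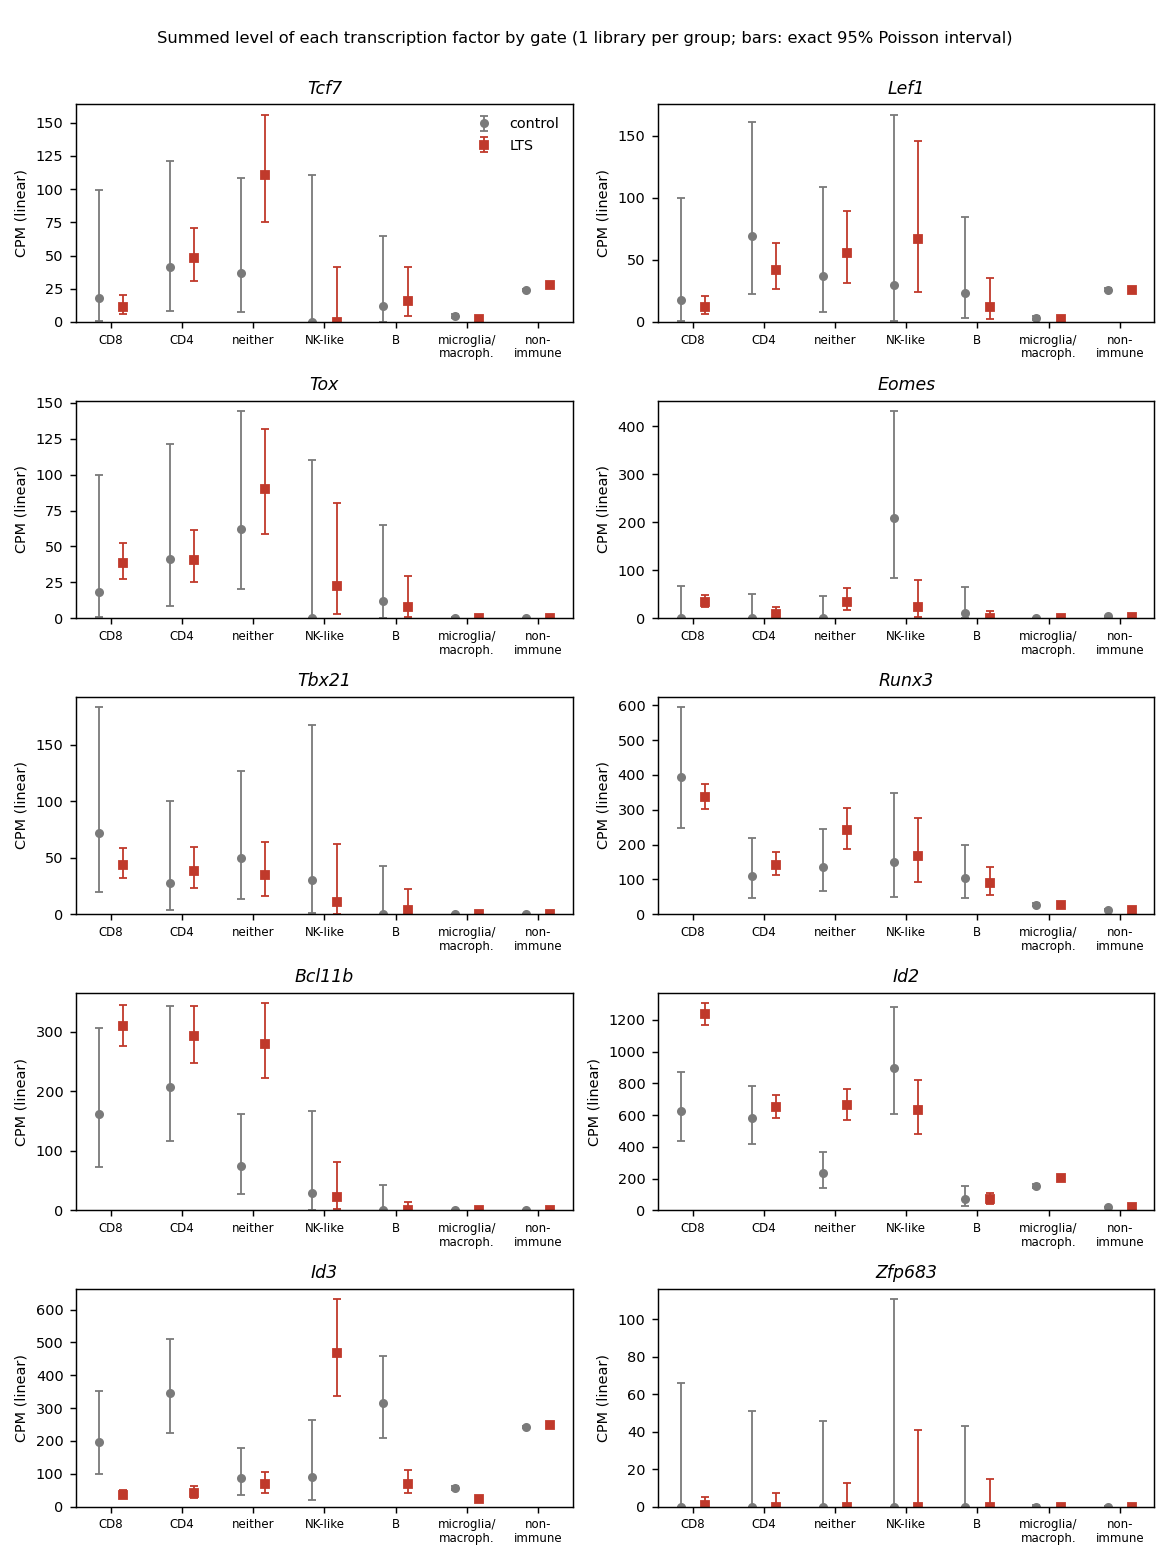
Summed level (CPM, linear axes that differ between panels) of each transcription factor in 7 gates of the control library (grey circles) and the LTS library (red squares), with exact 95% Poisson intervals. Id2 reached 1236 CPM in LTS CD8 cells, Bcl11b stood between 280 and 309 CPM in the LTS CD8, CD4 and neither gates, and Id3 was as high in non-immune cells as in free RNA.

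Id2, which blocks E proteins in effector and resident lymphocytes, was the member with the highest summed level in the gate. It stood at 985 CPM in LTS (941 to 1031, 1848 UMIs) and 459 CPM in control (372 to 561, 96 UMIs), a ratio of 2.15 (1.75 to 2.66). In the CD8 gate it was 1236 CPM in LTS and 626 in control, a ratio of 1.98 (1.41 to 2.85). The 2 libraries were close in the CD4 gate, at 651 and 581 CPM (ratio 1.12, 0.811 to 1.58), where 1 control cell held 31.0% of the control UMIs. They were apart in the neither gate, at 663 and 235 CPM (ratio 2.82, 1.76 to 4.78). An Id2 UMI was found in 239 of 259 LTS CD8 cells (92.3%, 88.3 to 95.2) and 8 of 16 control CD8 cells (50%, 24.7 to 75.3). After thinning every cell to 1000 UMIs the shares were 68.0% and 37.5%.

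Bcl11b, which is needed to keep T cells from turning to an innate programme, followed the same order of libraries. It stood at 302 CPM in the LTS CD3 gate (278 to 328, 566 UMIs) and 144 CPM in control (96.8 to 205, 30 UMIs), a ratio of 2.10 (1.46 to 3.15). Within the gates the ratio was 1.92 in CD8 cells (0.998 to 4.23), 1.41 in CD4 cells (0.826 to 2.58) and 3.76 in cells with neither co-receptor (1.66 to 10.6). In LTS the level was almost flat over the CD8, CD4 and neither gates, at 309, 292 and 280 CPM. Outside T cells Bcl11b was near 0, with 2 UMIs in 4974 control and 14 UMIs in 2331 LTS non-immune cells.

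The Cd3 level of the gate moved with Id2 and Bcl11b. Scaled to the summed Cd3d, Cd3e and Cd3g UMIs instead of all UMIs, the log2 difference in the CD3 gate fell from 1.09 to 0.33 for Id2 and from 1.05 to 0.29 for Bcl11b, and neither was then past 2-fold. That scaling divides every LTS level by the same number, so it moves all genes together. A gene's place relative to the median of all genes is then almost fixed in advance and says nothing here. The median went from -0.18 to -0.92 and Lef1 from -0.55 to -1.18. Tcf7 (0.14 to -0.52), Tox (0.10 to -0.58) and Runx3 (0.44 to -0.31) turned from higher to lower. The part of the differing Cd3 level in the result was not tested. Without cells over 10000 UMIs the log2 differences were 1.02 and 1.05.

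Id3, the sister inhibitor that is known for naive and memory T cells, went the other way. It stood at 42.7 CPM in the LTS CD3 gate (33.8 to 53.1, 80 UMIs) and 206 CPM in control (149 to 277, 43 UMIs), a 4.82-fold lower level (3.25 to 7.07). One control cell held 44.2% of the control UMIs of Id3, and the control level without it was 125 CPM. In the CD8 gate the levels were 36.3 CPM in LTS and 197 in control, with 72.7% of the control UMIs in 1 cell; in the CD4 gate they were 40.3 and 346, with 76.0% in 1 cell. In the neither gate, where no control cell held more than 1 UMI, they were 69.0 and 86.6 CPM (ratio 0.797, 0.324 to 2.23). Without cells over 10000 UMIs the CD3-gate levels were 31.3 CPM in LTS and 83.8 in control, and the log2 difference fell from -2.14 to -1.29.

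Id3 is also a gene of the non-immune cells of this tissue. Its level there was 247 CPM in LTS and 244 in control, a ratio of 1.01 (0.997 to 1.03), and it was 246 and 254 CPM in free RNA. A UMI of Id3 was found in 11.99% of LTS and 23.7% of control CD3 gate cells, against 87.2% and 86.2% of the deeper non-immune cells, and the thinned shares were 3.39% and 15.3% against 21.5% and 21.6% in non-immune cells. The tumour or stromal markers without Vim were also lower in LTS in the CD8 gate (501 against 1216 CPM), the CD4 gate (292 against 2366) and the neither gate (221 against 718), and their part in the Id3 difference was not tested. Microglia or macrophages also held less Id3 in LTS, 23.9 against 56.6 CPM (ratio 0.422, 0.347 to 0.512). There the same markers summed to 1176 CPM in LTS and 1149.8 in control, in a gate where 0.819% of genes of at least 20 CPM differed by 2-fold and 0.724% were lower.

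Read as a balance, Id2 made up 95.9% of the summed Id2 and Id3 UMIs in the LTS CD3 gate (94.9 to 96.7) and 69.1% in control (60.7 to 76.6). The LTS share was 97.1% in CD8, 94.2% in CD4 and 90.6% in neither-gate cells, against 76.1%, 62.7% and 73.1% in control. In non-immune cells it was 8.92% and 8.07%. Microglia or macrophages lay near the T cell gates, at 89.4% in LTS and 73.0% in control. The LTS NK-like gate was lower, at 57.6% against 90.9% in control, and 41 of its 42 Id3 UMIs were in 1 cell.

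**Figure D2:**
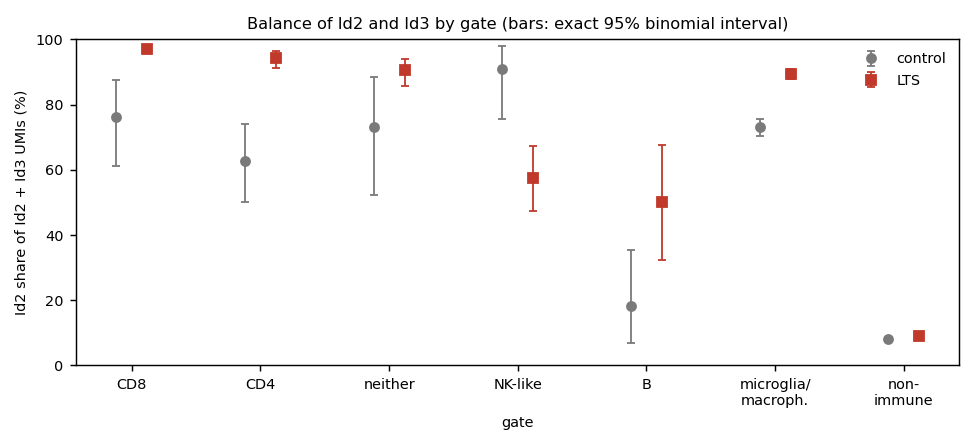
Share of Id2 among the summed Id2 and Id3 UMIs (percent) by gate in the control library (grey circles) and the LTS library (red squares), with exact 95% binomial intervals. The LTS CD8 gate sits at 97.1% and the non-immune cells of both libraries below 9%.

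Eomes, the T-box factor of memory CD8 and NK cells, was found in LTS T cells and in no control T cell. The LTS CD3 gate held 51 UMIs in 37 of 442 cells (27.2 CPM, 20.2 to 35.8), and control held a UMI in 0 of 59 cells, which allows a share of cells with a UMI of up to 5.08% by the limit of 3 counts (6.06% by the exact interval), at a median depth of 2575 UMIs. The LTS level was 1.89 times the floor of 3 counts in the control gate (14.4 CPM). This bound leaves out the counting error of the LTS level, and the exact interval of the control level reached 17.7 CPM. The count of 3 members higher in LTS includes Eomes through the pseudocount; with Eomes at that bound, 2 were. In the CD8 gate LTS held 36 UMIs in 28 of 259 cells (34.4 CPM), which is under the floor of 53.6 CPM in the 16 control cells, so that no fold can be given there. In the LTS CD4 gate all 5 UMIs were in 1 cell. In non-immune cells Eomes was 3.35 CPM in LTS and 3.38 in control, and in free RNA 3.77 and 4.08. The highest level was in control NK-like cells, with 7 UMIs in 4 of 12 cells (210 CPM, 84.3 to 432), while LTS NK-like cells held 2 UMIs in 2 of 13 (22.3 CPM, 2.70 to 80.4). In that LTS gate 5 of 13 cells had a UMI of a dendritic cell marker, against 1 of 12 in control.

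Tbx21, encoding the T-box factor of type 1 and effector responses, was even over T cells. It stood at 40.5 CPM in the LTS CD3 gate and 47.8 in control, a ratio of 0.847 (0.436 to 1.84). Within LTS it was 44.0, 38.4 and 34.5 CPM in the CD8, CD4 and neither gates, and these neighbours overlapped in their intervals. In microglia or macrophages it had 0 UMIs in both libraries. All 41 Tbx21-positive LTS CD8 cells also had an Id2 UMI (91.4 to 100%), where 198 of 218 Tbx21-negative cells did (86.2 to 94.3%). The positive cells were deeper, with medians of 3826 and 3329 UMIs. After thinning, Id2 was found in 9 of 12 Tbx21-positive cells (75.0%, 42.8 to 94.5) and 67.6% of the others.

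Runx3 set the CD8 gate apart from the CD4 gate in both libraries. In LTS it stood at 337 CPM in CD8 cells (303 to 375) and 142 in CD4 cells (112 to 178), a ratio of 2.37 (1.84 to 3.09). In control the same gates stood at 393 and 111 CPM, a ratio of 3.55 (1.52 to 9.23). Between libraries the CD3-gate ratio was 1.36 (0.991 to 1.92) and the CD8-gate ratio 0.858 (0.558 to 1.39), so the CD8 levels of the libraries overlapped. The CD8 gate made up 58.6% of LTS and 27.1% of control CD3 gate cells. Runx3 was also found in B cells (88.8 CPM in LTS, 105 in control) and, lower, in microglia or macrophages (25.2 and 26.9 CPM).

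**Figure D3:**
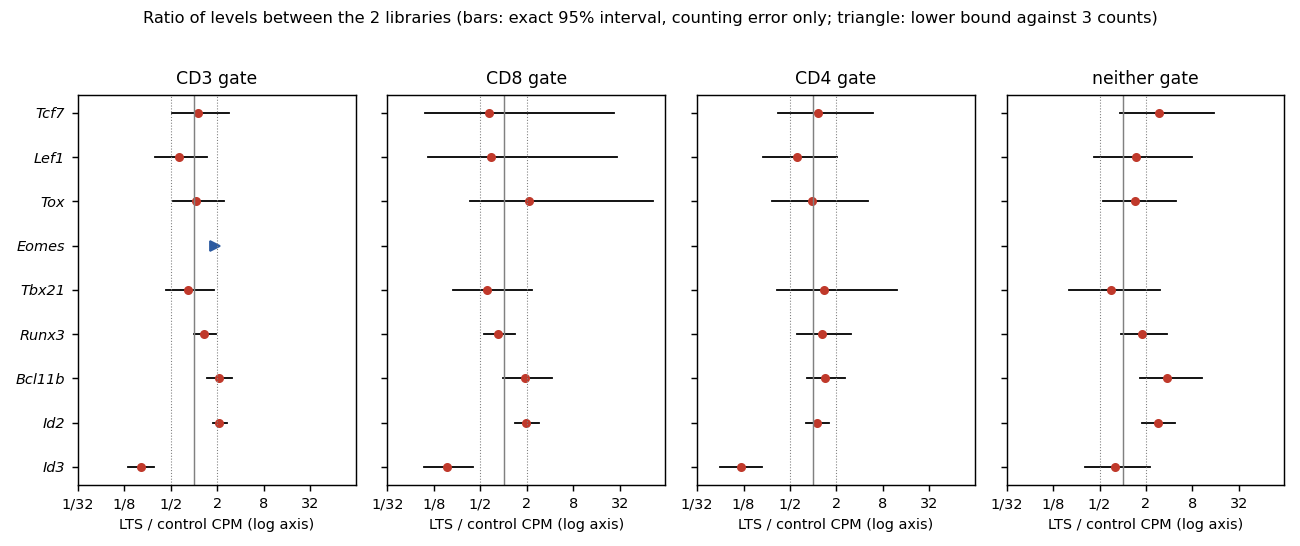
Ratio of LTS to control CPM (log axis) of each member in 4 gates, with exact 95% intervals; dotted lines mark 2-fold, and the triangle is the lower bound for Eomes, at 1.89 in the CD3 gate. Id2 and Bcl11b lie right of 1 in the CD3 gate, Id3 lies left of it, and the CD8, CD4 and neither gates have wider intervals, with 16, 13 and 30 control cells.

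Tcf7 and Lef1 differed between the gates of the LTS library. Between the libraries, Tcf7 stood at 37.3 CPM in the LTS CD3 gate and 33.5 in control (ratio 1.11, 0.513 to 2.87), and Lef1 at 27.7 and 43.1 (ratio 0.644, 0.314 to 1.49). In the neither gate Tcf7 was 110 CPM in LTS and 37.1 in control, with 3 control UMIs (ratio 2.97, 0.931 to 15.2). Within LTS, Tcf7 was 110 CPM in cells with neither co-receptor (75.5 to 156), 48.0 in CD4 cells (31.1 to 70.9) and 11.5 in CD8 cells (5.93 to 20.04). The neither gate was thus 9.63 times as high as the CD8 gate (4.83 to 20.5), and the CD4 gate 4.19 times (2.03 to 9.15). Lef1 gave 55.2, 42.3 and 12.4 CPM in the same order; its CD4 and neither gates overlapped, and both were above CD8, by 3.401 (1.64 to 7.35) and 4.44 times (2.004 to 10.04). In control CD8 cells each gene had 1 UMI. The LTS neither gate also held markers of other lymphocytes: the 3 measured gamma-delta T genes summed to 155 CPM there and 0 in the CD8 and CD4 gates, and 5 of 6 B cell genes, with Pax5 at 0, summed to 93.2 CPM against 0.956 in CD8 and 32.7 in CD4 cells. Their part in the Tcf7, Lef1 and Tox levels of this gate was not tested.

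The background limits these levels. Non-immune cells held Tcf7 at 28.2 CPM in LTS and 23.9 in control and Lef1 at 25.4 and 26.1, and free RNA held 21.3 and 19.0 CPM of Tcf7 and 19.7 and 18.7 of Lef1. The LTS CD8 levels of both genes were below the free RNA. They were above those of LTS microglia or macrophages, at 2.12 CPM of Tcf7 (1.16 to 3.55) and 2.42 of Lef1 (1.38 to 3.93). The part of background RNA in the CD8 levels was not tested. For Tcf7, 25.6% of LTS neither-gate cells had a UMI (12.2% after thinning), 12.2% of CD4 cells (3.33% thinned) and 4.63% of CD8 cells (1.54% thinned). Of LTS non-immune cells, which are far deeper with a median of 39987 UMIs, 59.1% did (3.003% thinned). Lef1 was found in 18.9% of LTS CD4 cells (1.11% thinned, 0.0281 to 6.04) and 3.86% of CD8 cells (1.54% thinned, 0.422 to 3.91). In the neither gate it was found in 12.2% (5.56% thinned). The thinned Lef1 share of CD4 cells was thus not above that of CD8 cells. Cells over 10000 UMIs carried 31.7% of the UMIs of the LTS CD4 gate. Tcf7 overlaps Gm26551 on its own strand and A630014C17Rik on the other, so some Tcf7 reads may be shared. Lef1 overlaps Gm43352 on the other strand only.

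Tox, a factor of exhausted and of early T cells, stood at 46.4 CPM in the LTS CD3 gate and 43.1 in control (ratio 1.08, 0.542 to 2.43). In the CD8 gate it was 38.2 CPM in LTS and 17.9 in control, with 1 control UMI (ratio 2.14, 0.362 to 86.6). Within LTS it was 89.7 CPM in neither-gate cells, 40.3 in CD4 and 38.2 in CD8 cells; the neither gate was 2.35 times as high as CD8 (1.38 to 3.94), and CD4 and CD8 overlapped. Free RNA held 1.995 CPM in LTS and 0.480 in control. Tox overlaps Gm11802 on the other strand. Zfp683, marking residency in other tissues, had 1 UMI in both libraries together over all the gates, in an LTS CD8 cell, so no fold is given.

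In the CD8 gate, the narrower comparison with 16 control cells, 2 of the 10 members counted as past 2-fold, Id3 lower and Eomes higher, Eomes through the pseudocount alone and not at its bound. Of all genes of at least 20 CPM, 7 members among them, 35.3% were past 2-fold (16.9% higher and 18.4% lower), so the members' count is no result about them. Id2 (log2 difference 0.98), Bcl11b (0.92) and Tox (0.92, with 1 control UMI) were just inside the threshold.

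Co-detection within single cells was read in the LTS library, where the gates hold enough cells. Lef1 was found in 13 of 47 Tcf7-positive CD3 gate cells (27.7%, 15.6 to 42.6) and 26 of 395 Tcf7-negative ones (6.58%), at medians of 3132 and 3371 UMIs. The same Tcf7-positive cells had an Id2 UMI in 61.7% and a Cxcr6 UMI in 51.1%, where the negative cells had 86.8% and 81.3%. Cxcr6 is a chemokine receptor of resident T cells. These shares pool the gates, and the CD8, CD4 and neither gates held 12, 11 and 23 of the Tcf7-positive cells. An Id2 UMI was found in 92.3%, 78.9% and 65.6% of all cells of those gates. Within the neither gate Lef1 was found in 30.4% of Tcf7-positive (13.2 to 52.9) and 5.97% of Tcf7-negative cells (1.65 to 14.6), with overlapping intervals. The part of the gates in the Id2 and Cxcr6 differences was not tested. Id2-positive cells had Cxcr6 in 317 of 372 (85.2%) and Id2-negative cells in 28 of 70 (40.0%), though the positive cells were deeper, with medians of 3492.5 and 2773.5 UMIs. After thinning to 1000 UMIs, Cxcr6 was found in 50.6% of Id2-positive and 32% of Id2-negative CD3 gate cells. Within the CD8 gate alone these shares were 90.8% and 40.0% before thinning. After it they were 50.6% (42.9 to 58.2) and 41.0% (30.3 to 52.3), with overlapping intervals. With 18 Tcf7-positive cells left, the thinned Lef1 shares were 11.1% (1.38 to 34.7) against 2.12% (0.975 to 3.99). Those of Id2 were 33.3% (13.3 to 59.0) against 60.1% (55.3 to 64.8), and for both genes the intervals overlapped. For Cxcr6 the thinned shares were 33.3% (13.3 to 59.0) against 43.4%.

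In the LTS CD8 gate a smaller share of Eomes-positive and of Tox-positive cells than of the others had an Itgae UMI. Itgae, the integrin chain CD103 that holds T cells in epithelia and tissue, had a UMI in 4 of 28 Eomes-positive cells (14.3%, 4.03 to 32.7) and 111 of 231 Eomes-negative ones (48.1%). Gzmk, a granzyme of memory-like CD8 cells, went the other way, though with overlapping intervals. It was found in 21 of 28 (75.0%, 55.1 to 89.3) against 121 of 231 (52.4%, 45.7 to 59.0). Tox-positive cells had Itgae in 4 of 26 (15.4%) and Il7r, the IL-7 receptor of long-lived T cells, in 5 of 26 (19.2%), against 47.6% and 53.2% in Tox-negative cells. Pdcd1, encoding PD-1, was found in 10 of 26 Tox-positive cells (38.5%, 20.2 to 59.4) and 20.2% of the others (15.2 to 25.9). Mki67, a proliferation marker, was found in 34.6% (17.2 to 55.7) against 14.2% (9.95 to 19.3). For both genes the intervals overlapped. Without cells over 10000 UMIs the Mki67 shares were 22.7% and 13.2%. Median depths were 3221.5 and 3455 UMIs for Tox-positive and Tox-negative cells and 3353 and 3431 for Eomes-positive and Eomes-negative ones. After thinning, 0 of 12 Eomes-positive (0 to 26.5%) and 0 of 9 Tox-positive cells (0 to 33.6%) had an Itgae UMI. The others had 18.6% and 18.4%, shares that lie within these intervals. Cells of 1 library are not replicates, and none of these differences was tested.

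**Figure D4:**
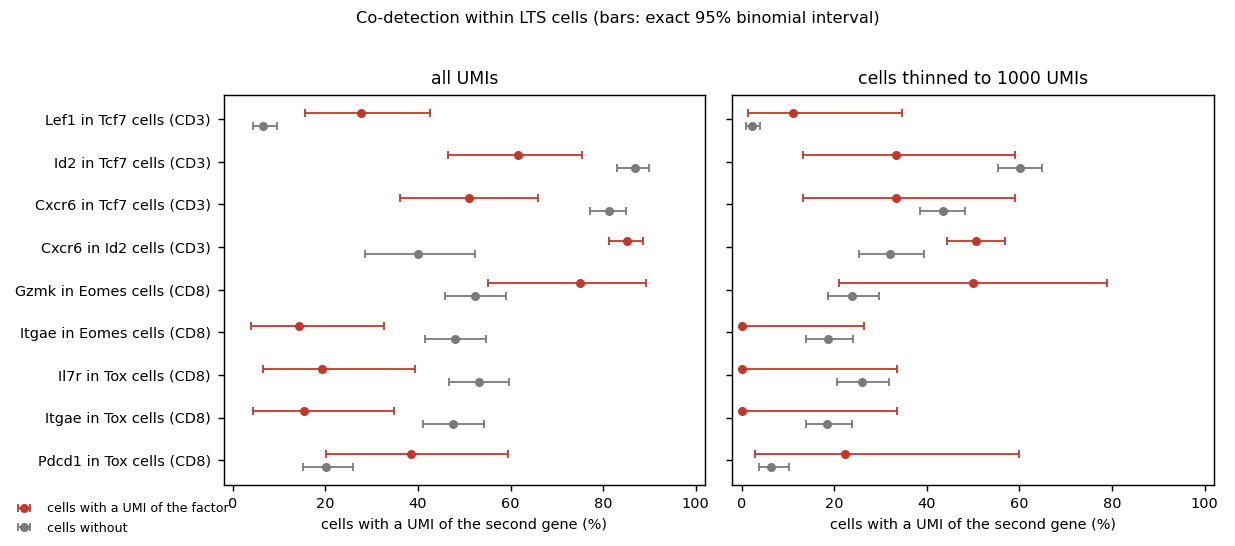
Percent of LTS cells with a UMI of a second gene among cells with (red) and without (grey) a UMI of the transcription factor, from all UMIs (left) and after thinning each cell to 1000 UMIs (right), with exact 95% binomial intervals. Itgae was found in 14.3% of Eomes-positive and 48.1% of Eomes-negative CD8 cells. The intervals for Gzmk by Eomes and for Pdcd1 by Tox overlap already before thinning, and most intervals widen and overlap after it.

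The genes around the members give their setting. Of 26 other T cell transcription factors with at least 20 CPM in the CD3 gate, 1 was higher in LTS and 6 lower by 2-fold, with a median log2 difference of 0.08. Ikzf1, a zinc finger factor of lymphocyte development, was 143 CPM in LTS and 43.1 in control (ratio 3.33, 1.73 to 7.36), and Myb was lowest in LTS, with 2.67 against 47.8 CPM. Of the 3 E proteins that Id2 and Id3 bind, Tcf3 and Tcf12 were within 2-fold, and Tcf4 was 109 CPM in LTS and 335 in control (3.08-fold lower, 2.31 to 4.06). Of 6 Wnt pathway and Runx partners measured, Tle4, a co-repressor, was higher (36.3 against 14.4 CPM, with 3 control UMIs) and Cbfb was within 2-fold (ratio 1.17, 0.647 to 2.32).

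Gene groups tied to the members' fates were counted in the same way. Among the naive and memory genes reported here, Il7r and Ltb were higher and Ccr7 and Klf2 lower; Il7r was 297 CPM in LTS and 62.2 in control (ratio 4.77, 2.77 to 9.02). Of 10 effector genes in the CD3 gate, 4 were higher and none lower. Within the CD8 gate 4 were higher and 2 lower, where 16.9% and 18.4% of all genes of at least 20 CPM were. In the CD4 gate 4 were higher and 3 lower, beside 907 and 1239 of 7194 such genes. The neither gate had 5 higher and 1 lower, beside 975 and 1380 of 7542. In the CD3 gate Ccl5, a chemokine, was 6370 against 938 CPM (ratio 6.79, 5.90 to 7.86), while Gzmb was 289 against 550.3 CPM. Of 6 residency genes in the CD3 gate, 3 were higher and none lower, with Itgae at 328 UMIs in LTS and 1 in control (175 and 4.79 CPM). Within the CD8 gate 2 residency genes were higher and 1 lower, in the CD4 gate 3 and 1, and in the neither gate 1 and 0. Of 7 genes of exhaustion and inhibitory receptors in the CD3 gate, 3 were higher and 1, Tnfrsf9, lower. Pdcd1 was within 2-fold there (73.6 against 86.1 CPM). The lists are small beside the 14% of all genes past 2-fold in the CD3 gate, and no enrichment was tested.

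Over 14 points (7 gates in 2 libraries), Pearson's r of log2(CPM + 5) ranked the genes most like each member. Bcl11b was most like Lat (0.991), Cd247 (0.985) and Thy1 (0.982), and Tbx21 most like Ms4a4b (0.979), Zap70 (0.970) and Atp2b4 (0.965). Id2 was most like AW112010 (0.979), Arhgap9 and Ostf1, and Runx3 most like Stk17b (0.972), Mtmr1 and Itga4. Tox came closest to Cd2 (0.942), Eomes to Plekha5 (0.923), Tcf7 to Ythdc1 (0.922), Lef1 to Hk1 (0.900) and Id3 to Cyth3 (0.898). The points share libraries and depth, and these values are a description with no p.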

How the data were processed

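The 2 libraries of droplet 3' version 3 single-cell RNA sequencing were analysed. The deposited matrices hold raw UMI counts, with no normalization by the authors. Per the file headers Cell Ranger 4 wrote them, and the submitters' processing notes name mm10. For the annotation, a release was not given in the sources. Gates, markers and lists followed the rules given in the report; CD3-gate cells needed 2 UMIs of Cd3d, Cd3e and Cd3g, at least 2 of them per 10000, and at most 10 C1q UMIs per 10000. Counts were summed per gate and scaled to CPM. Shares carry exact binomial (Clopper-Pearson), levels exact Poisson and ratios exact conditional 95% intervals. Log2 differences used a pseudocount of 5 CPM. Thinning drew 1000 UMIs per cell without replacement. The named genes were the 10 members, the genes at the ends of each list, the co-detection partners and the 3 genes most like each member; other list genes were named after their values were seen. One naive and memory gene is not reported here, so that list has no count. Gene positions came from GENCODE M21. The ratio step was tested on simulated data. Python 3.11.15, numpy 2.4.6, scipy 1.17.1, pandas 2.3.3 and matplotlib 3.10.9 were used. The members and lists were chosen with earlier results of these data known. No doublet caller was run and 0 columns of per-sample values were left unused.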

Additional observations from a re-analysis of the deposited data

How the results depend on the processing

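The count of members past 2-fold in the CD3 gate was 4 and ranged from 3 to 5 over the alternatives. In the CD8 gate it was 2; it became 3 with 1 Cd3 UMI, with no C1q UMI, with cells weighing equally, with a pseudocount of 1 CPM and without cells over 10000 UMIs. It was 4 with a minimum of 2000 UMIs (39.4% of all genes past 2-fold), 4 with 4 Cd3 UMIs (39.1%), 5 with median-of-ratios scaling (34.6%), 7 without the cell with most UMIs of the member (a change made to the members only), 5 scaled to Cd3 UMIs (1 higher and 4 lower, where 4.19% and 54.7% of all genes were) and 1 with Eomes at its bound. The last 3 of these settings, and the one without cells over 10000 UMIs, were chosen after seeing the data. The Eomes bound in the CD8 gate was -0.64 on the log2 scale, below the control floor, so its sign says nothing. Of 302 log2 values, 288 stayed within the counting interval of the reported value. That interval has no upper limit for members with 0 control UMIs, Eomes and Zfp683. It is very wide for Tcf7, Lef1 and Tox in the CD8 gate, with 1 control UMI each. For these members staying within it says little. The sign differed from the reported one in 16, for Tcf7 and Lef1 in the CD8 gate, Tcf7, Tox and Runx3 in the CD3 gate and the Eomes bound; of members past 2-fold this was so for the Eomes bound only. Of 84 co-detection differences, 2 turned sign, both after thinning: Il7r in Runx3-positive minus Runx3-negative CD8 cells at -10.1 percentage points, and Id3 in Lef1-positive minus Lef1-negative CD3 gate cells at -3.48. The cause was not tested. No paired analysis was possible because each group is 1 library, and no library could be left out. The 16 control CD8 cells limit every CD8 comparison.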
